A study of Mus musculus with 4 samples.

Results

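The collagen gene family was followed across the cell types of the mouse lung, in control and inflamed lungs with and without low-dose irradiation of the chest. Its members were taken by name alone: every gene whose symbol reads Col, a number, the letter a and a number, with nothing after it. This gave 44 of the 32285 genes in the deposited tables. At least 1 transcript of each of the 44 was counted, and 40 of them had 20 counts or more over all libraries.

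Collagens are extracellular proteins built from 3 alpha chains wound into a triple helix, and each member encodes 1 alpha chain. Fibril-forming chains (types I, III and V) give the lung its tensile strength, while type IV chains form the sheet-like network of basement membranes under epithelium and around capillaries. Beaded-filament chains (type VI) link cells to the matrix, fibril-associated chains (types XII and XIV) sit on fibril surfaces, and multiplexins (types XV and XVIII) join basement membranes to the matrix around them; the C-terminal piece of the Col18a1 chain is endostatin.

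The samples were lungs of wild-type male C57BL/6 mice of 6 to 7 weeks, whose cells were sequenced with the 10x 3′ kit in 4 libraries. Each group is 1 library. The PBS group received 100 µL of saline into the trachea and the LPS group 200 µg of lipopolysaccharide, a bacterial cell wall component that inflames the lung. The PBS+RT and LPS+RT groups also received 1 Gy of X-rays to the thorax on the next day. Lungs were collected at 48 hours, which is 24 hours past irradiation in the RT groups, and the cells were collected on a Ficoll gradient of grade 1.084. The labels do not give the number of mice in a library. With 1 library per group no difference has a replicate check, no test was made, and a group cannot be told apart from its library.

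After filtering, the libraries held 6226 to 9660 cells with a median of 4285 to 8586 UMIs per cell, the highest in PBS+RT. A UMI marks 1 captured RNA molecule. Cell classes were rebuilt from markers after clustering without the collagen genes, and are written as "-like" because they are not the submitters' annotation. A level is given as CPM: a gene's share of the UMIs summed over a class in a library, with 1 CPM equal to 0.0001%. Where 4 levels follow each other, the libraries are PBS, PBS+RT, LPS, LPS+RT. Levels count transcript 3′ ends and are not scaled by length, so levels are compared between classes and libraries rather than between genes. Each interval is an exact 95% interval for counting error alone. In alveolar fibroblast-like cells the interval around a level of at least 1000 CPM stayed within 3.46% of it, and around a level of at least 100 CPM within 11.9%. A measured gene had at least 5 CPM in the higher library and 20 UMIs in the pair of libraries, and a difference of at least 1.5-fold is counted as higher or lower, with no test behind it.

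Collagen RNA was highest in fibroblast-like cells, and each compartment had its own set of chains. Collagen made up 2.92%, 2.30%, 2.42% and 2.70% of all UMIs in adventitial fibroblast-like cells, and 0.809%, 0.923%, 1.37% and 0.984% in alveolar fibroblast-like cells. The share was 0.437%, 0.554%, 0.553% and 0.432% in pericyte-like cells, and 0.438%, 0.720%, 0.582% and 0.406% in alveolar type 1-like cells, the flat cells of the gas-exchange surface. General capillary endothelial-like cells gave 0.164%, 0.164%, 0.311% and 0.172%. T cell-like and neutrophil-like cells, which should lack these genes, had summed levels of 50.5 to 71.4 CPM and 189 to 241 CPM, and these are taken as the background level. Alveolar macrophage-like cells stood at 68.9 to 83.0 CPM, overlapping the T cell range. The map of mean levels shows 33 members whose mean over the libraries reached 5 CPM in at least 1 of 16 classes.

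**Figure D1:**
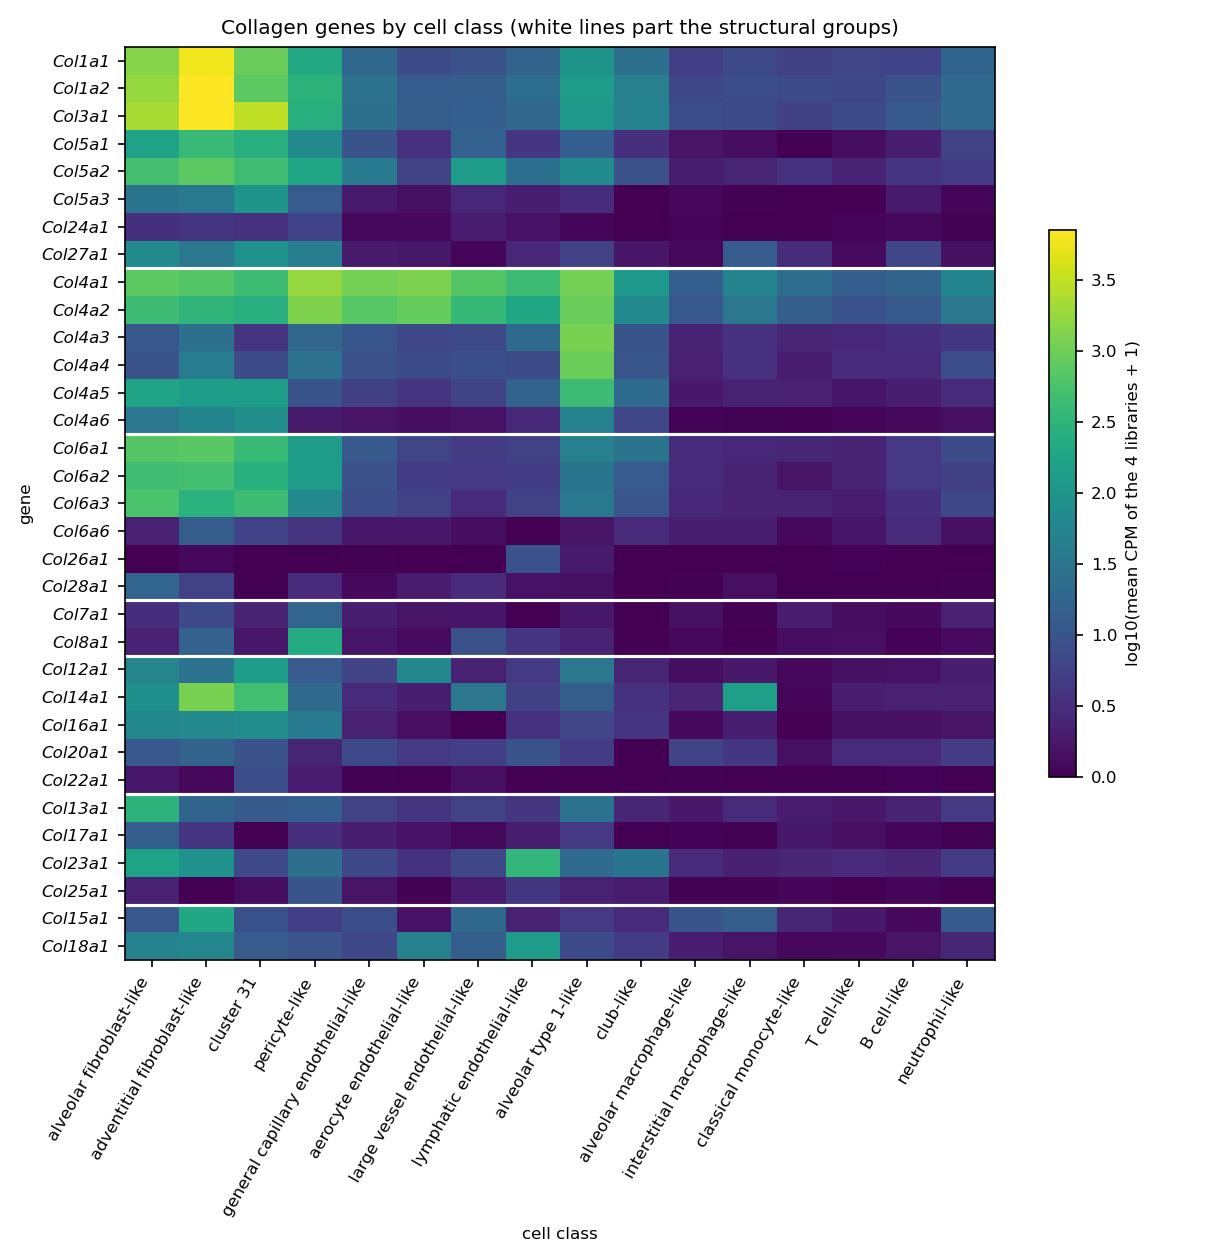
Mean level over the 4 libraries of 33 collagen genes (rows) in 16 cell classes (columns), as the log10 of CPM plus 1. Fibril-forming chains are high in the fibroblast classes, Col4a1 and Col4a2 in pericyte-like, endothelial and alveolar type 1-like cells, and Col4a3 and Col4a4 in alveolar type 1-like cells.

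The classes carried markers from the lists they were named by, so these levels are no separate check of the names. Alveolar fibroblast-like cells carried Npnt at 1262 to 2004 CPM, and adventitial fibroblast-like cells carried Pi16 at 759 to 1774 CPM. Pericyte-like cells had Pdgfrb at 690 to 984 CPM, general capillary endothelial-like cells Gpihbp1 at 531 to 1020 CPM, aerocyte-like endothelial cells Car4 at 1500 to 2299 CPM, and alveolar type 1-like cells Ager at 5017 to 6793 CPM. A further mesenchymal cluster, number 31, led by Hhip and Aspn, had no class marker among its 10 leading genes and is described by its number. Neutrophil RNA was also highest in the LPS library in most of these classes: 6 neutrophil markers summed to 44.6, 271, 1267 and 360 CPM in alveolar fibroblast-like cells and to 47.1, 42.0, 531 and 79.2 CPM in general capillary endothelial-like cells. In adventitial fibroblast-like cells LPS+RT had the most, 365.4 CPM against 174.8 CPM in LPS. Its part in the results was not tested.

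The fibril-forming chains were highest in adventitial fibroblast-like cells, the cells that surround airways and vessels. Col1a1, the alpha-1 chain of type I collagen, stood there at 7419, 5205, 4620 and 6111 CPM. Its partner Col1a2 stood at 8640, 6617, 5204 and 7979 CPM. Col3a1, the chain of type III collagen, stood at 7586, 5096, 8122 and 7815 CPM. In alveolar fibroblast-like cells, which lie in the alveolar wall, the same genes were lower in every library: Col1a1 had 1048, 1069, 2196 and 1417 CPM. Col1a2 had 1449, 1281, 2490 and 1880 CPM there. Col3a1 had 1827, 1790, 2976 and 2218 CPM. The levels of the classes did not overlap between libraries for any of these chains. Cluster 31 had little type I collagen for its type III: Col3a1 at 3556, 2242, 3585 and 2946 CPM stood beside Col1a1 at 810, 673, 1386 and 879 CPM. The plot of fibroblast levels shows this order library by library.

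**Figure D2:**
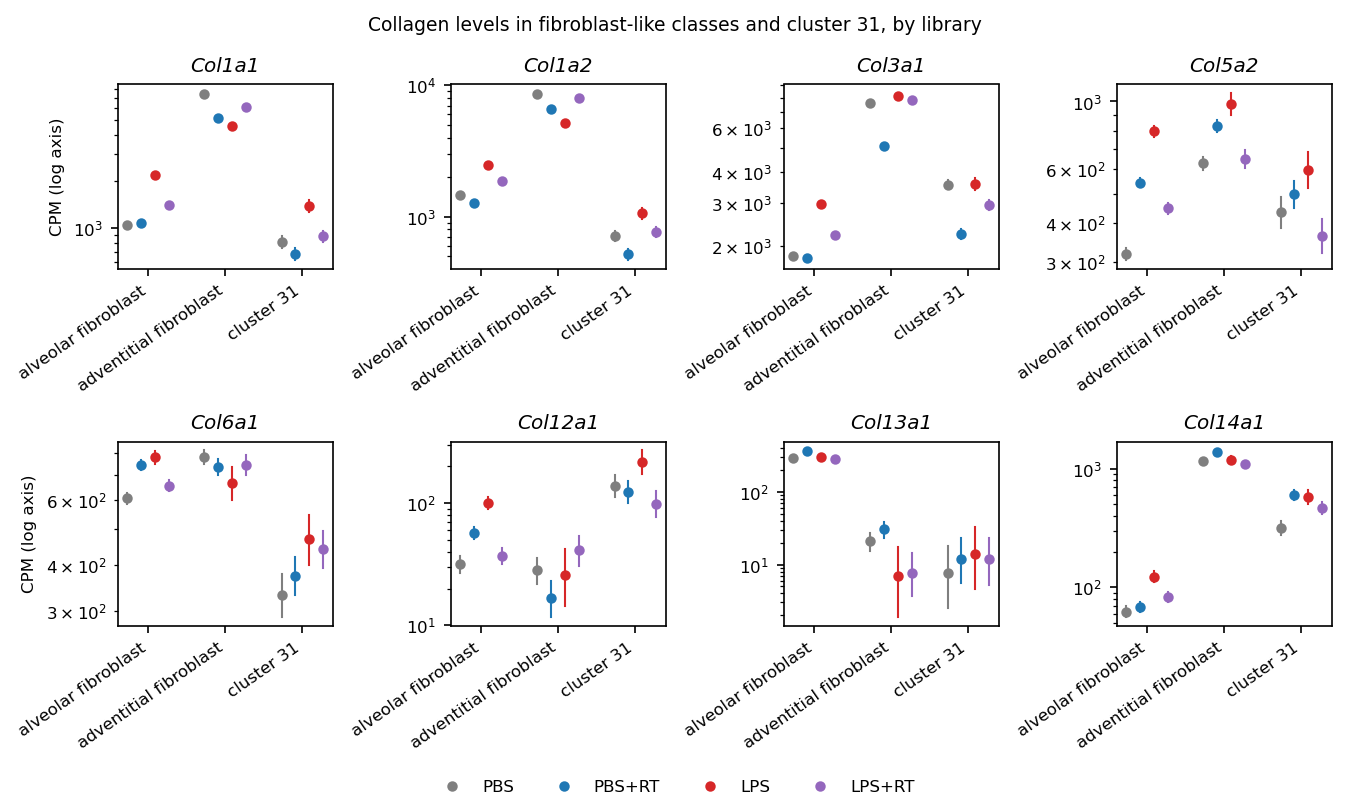
Level in CPM (log axis) of 8 collagen genes in alveolar fibroblast-like cells, adventitial fibroblast-like cells and cluster 31, with 1 point per library and exact 95% Poisson intervals that cover counting error only. Col1a1 lies between 4620 and 7419 CPM in adventitial fibroblast-like cells and between 1048 and 2196 CPM in alveolar fibroblast-like cells, where the LPS point is the highest.

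Type I collagen contains 2 chains from Col1a1 for each chain from Col1a2, but the UMI ratio of Col1a1 to Col1a2 was below 1 in both named fibroblast classes. It ran from 0.723 to 0.882 over the libraries in alveolar fibroblast-like cells and from 0.766 to 0.888 in adventitial fibroblast-like cells. In cluster 31 it ran from 1.13 to 1.31, outside both ranges. Type V collagen, which starts type I fibrils and sets their width, showed the same kind of gap: Col5a1 to Col5a2 was 0.386, 0.292, 0.274 and 0.340 in alveolar fibroblast-like cells and 0.641, 0.459, 0.463 and 0.591 in adventitial fibroblast-like cells. Capture of 3′ ends can differ between genes, so a ratio is comparable between classes but is not the ratio of molecules made.

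The start regions of Col1a2 and Col3a1 are shown because these genes lead both fibroblast classes. They were read from RefSeq promoters on the GRCm38.p6 build, and 35 of the 44 members had an entry (Col9a3, Col1a1, Col22a1, Col4a3, Col2a1, Col5a2, Col12a1, Col26a1 and Col14a1 had none). Both lie on the + strand: 123 exon-free bases at chr6:4505370-4505492, which end 125 bases short of the RefSeq start of Col1a2 at base 4505618, and 250 bases upstream of the Col3a1 start at chr1:45311288-45311537. A longer Col1a2 transcript in GENCODE M21 starts at base 4504814, so the Col1a2 stretch lies in an intron of that transcript. Capitals mark matches to GGGCGG (or CCGCCC on the other strand), CCAAT (or ATTGG) or TATAAA (or TTTATA), which do not overlap one another.
Col1a2: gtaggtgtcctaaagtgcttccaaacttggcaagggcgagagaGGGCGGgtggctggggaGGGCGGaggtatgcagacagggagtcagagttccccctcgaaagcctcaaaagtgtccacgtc
Col3a1: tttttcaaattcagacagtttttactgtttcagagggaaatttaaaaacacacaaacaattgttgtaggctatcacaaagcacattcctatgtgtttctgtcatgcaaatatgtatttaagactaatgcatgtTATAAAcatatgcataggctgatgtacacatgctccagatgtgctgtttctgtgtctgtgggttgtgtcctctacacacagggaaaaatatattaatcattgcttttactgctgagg
The Col1a2 stretch held GGGCGG 2 times, at bases 44 to 49 and 61 to 66, and 59.3% of its bases were G or C. A window of that length just before the start held GGGCGG on either strand in 26.7% of the 32851 RefSeq promoters. The Col3a1 stretch held TATAAA 1 time, at bases 134 to 139, with 35.2% G or C, against 12.4% of promoters for a window of that length. A match describes the letters and is not a binding site.

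Beyond the shared fibrils, alveolar and adventitial fibroblast-like cells differed in the chains that decorate them. Col13a1, a transmembrane collagen found at sites of cell adhesion, stood on the alveolar side with 298, 366, 310 and 284 CPM. It had 20.8, 30.5, 6.85 and 7.76 CPM in adventitial fibroblast-like cells. Col14a1, which binds fibril surfaces, ran the other way with 1150, 1385, 1186 and 1092 CPM in adventitial and 62.6, 68.1, 123 and 82.6 CPM in alveolar fibroblast-like cells. Neither gene's ranges met between the classes. Col15a1, a multiplexin, had 247, 133, 267 and 165 CPM in adventitial fibroblast-like cells against 8.99 to 11.3 CPM in alveolar ones. Col23a1, another transmembrane chain, had 140, 197, 189 and 164 CPM in alveolar fibroblast-like cells and 107, 142, 49.7 and 78.4 CPM in adventitial ones, so its ranges met. It was also found in lymphatic endothelial-like cells, at 198, 461, 398 and 386 CPM.

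The 3 main type VI chains, which assemble into beaded filaments, were all present in fibroblast-like cells. In alveolar fibroblast-like cells Col6a1 stood at 605, 743, 781 and 654 CPM, Col6a2 at 395, 463, 568 and 482 CPM, and Col6a3 at 476, 587, 676 and 555 CPM. Adventitial fibroblast-like cells had Col6a1 at 781, 733, 665 and 745 CPM but Col6a3 at 357, 261, 288 and 241 CPM. The Col6a1 to Col6a3 ratio was accordingly 1.16 to 1.27 in alveolar and 2.19 to 3.10 in adventitial fibroblast-like cells, with no overlap. In cluster 31 it ran from 0.706 to 1.06. Col8a1, a short network-forming chain known from vessel walls, had 193, 323, 253 and 156 CPM in pericyte-like cells and at most 30.6 CPM in adventitial fibroblast-like cells.

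Among basement membrane chains, Col4a1 went with Col4a2 and Col4a3 with Col4a4 across cell types, the pairs in which these genes are arranged. Col4a1 and Col4a2, which form the common type IV trimer, were present in pericyte-like, endothelial, fibroblast-like and alveolar type 1-like cells. In PBS, Col4a1 stood at 1361 CPM in pericyte-like, 996 CPM in aerocyte-like, 891 CPM in general capillary, 806 CPM in alveolar type 1-like and 566 CPM in alveolar fibroblast-like cells. Col4a3, Col4a4 and Col4a5, which form the trimer of mature alveolar and glomerular basement membrane and are mutated in Alport syndrome, belonged to alveolar type 1-like cells. Col4a3 stood there at 1099, 1579, 1084 and 995 CPM. Col4a4 stood at 930, 1218, 892 and 830 CPM, and Col4a5 at 415, 566, 439 and 330 CPM. In general capillary endothelial-like cells Col4a3 was at 7.21 to 11.5 CPM, and in alveolar fibroblast-like cells at 6.03 to 14.9 CPM. Col4a5 was also found in alveolar fibroblast-like cells at 171, 227, 168 and 143 CPM, so it did not follow Col4a3 there.

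The type IV genes lie head to head. The start stretches of Col4a1 with Col4a2 and of Col4a3 with Col4a4 are shown because the genes of each pair were found in the same classes. The remaining pair lies on the X chromosome and is not shown. There Col4a6, on the − strand, starts at base 141474076 and Col4a5, on the + strand, at base 141475385. In GRCm38.p6, the GENCODE M21 start of Col4a1, transcribed on the − strand, is at base 11312826 of chromosome 8. That of Col4a2, on the + strand, is at base 11312805. The first exons overlap by 22 bases, chr8:11312805-11312826, printed on the + strand. Col4a4 and Col4a3 start 71 bases apart in GENCODE M21, chr1:82586850-82586920, with Col4a4 on the − strand and Col4a3 on the + strand. This spacer is printed on the − strand, with capitals for motif matches as above.
Col4a1 and Col4a2 overlap: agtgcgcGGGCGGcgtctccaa
Col4a4 and Col4a3 spacer: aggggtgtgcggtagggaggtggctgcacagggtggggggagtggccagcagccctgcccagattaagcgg
The overlap held GGGCGG at bases 8 to 13 and 72.7% G or C. Of RefSeq promoters 7.2% had that motif in the 22 bases just before the start, whereas the overlap lies after both starts. The spacer held none of the 3 motifs, at 69.0% G or C. Over 38 start windows of the members, 22 (57.9%) held GGGCGG, against 32.7% of all promoters at 250 bases. CCAAT was in 13 (34.2%) against 33.8%, and TATAAA in 5 (13.2%) against 12.4%.

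The balance of the paired type IV chains differed between some classes, and within some classes also between libraries. Col4a1 to Col4a2 was 1.09 to 1.29 over the libraries in alveolar type 1-like cells, 1.32 to 1.42 in pericyte-like cells and 1.51 to 1.70 in general capillary endothelial-like cells. It was 1.62 to 1.90 in alveolar fibroblast-like and 1.80 to 2.53 in adventitial fibroblast-like cells. In aerocyte-like cells Col4a1 and Col4a2 stood at 996 and 625 CPM in PBS and at 1611 and 1273 CPM in LPS. In cluster 31 they stood at 355 and 157 CPM in PBS and at 604 and 483 CPM in LPS. No clean order of all classes can therefore be read from this balance. The ratio of Col4a3 to Col4a4 in alveolar type 1-like cells was 1.18 to 1.30. Col4a6, the head-to-head partner of Col4a5, was low. It had 51.0, 67.6, 46.7 and 27.2 CPM in alveolar type 1-like cells and 32.0, 49.2, 24.1 and 24.9 CPM in alveolar fibroblast-like cells. The plot of basement membrane chains gives the values.

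**Figure D3:**
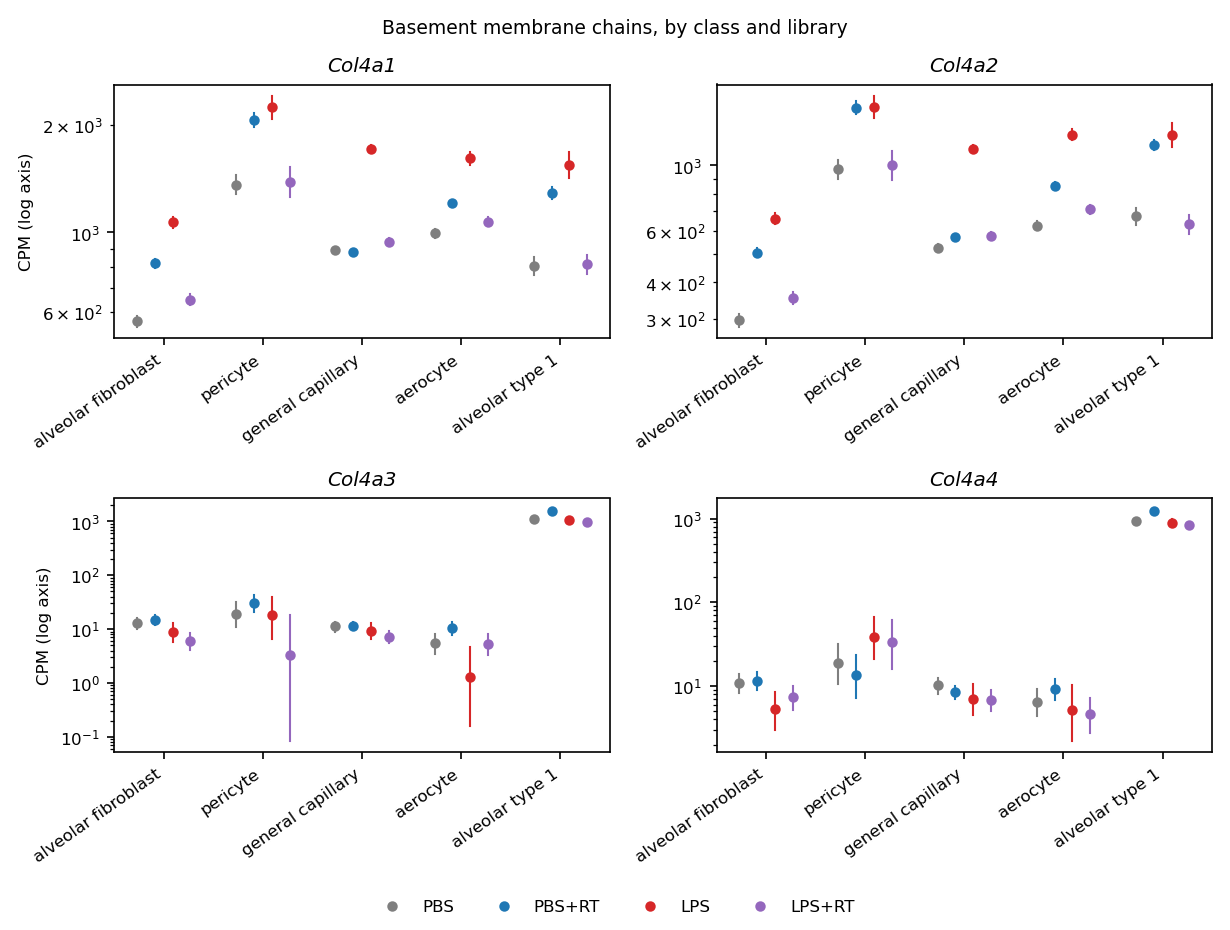
Level in CPM (log axis) of Col4a1, Col4a2, Col4a3 and Col4a4 in 5 cell classes, 1 point per library with exact 95% Poisson intervals that cover counting error only. Col4a1 and Col4a2 are present in every class shown and highest in the LPS library in alveolar type 1-like, endothelial and alveolar fibroblast-like cells, whereas Col4a3 and Col4a4 are high in alveolar type 1-like cells.

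LPS against PBS, the inflamed against the control lung without irradiation, gave higher fibril and basement membrane chains in alveolar fibroblast-like cells. Col5a2, a type V chain, had 318 CPM in PBS and 798 CPM in LPS, 2.51-fold higher (2.36 to 2.68). Col1a1 was 2.10-fold higher (2.02 to 2.17), Col1a2 1.72-fold (1.67 to 1.77) and Col3a1 1.63-fold (1.58 to 1.68). Col4a1 was 1.89-fold higher (1.80 to 1.99) and Col4a2 2.22-fold (2.08 to 2.37). The largest named ratio was that of Col12a1, a fibril-associated chain, with 31.7, 57.3, 100.1 and 37.1 CPM, 3.16-fold higher in LPS than in PBS (2.61 to 3.84). Of 27 measured members 12 were higher, against a background of 13.4% of all 11398 genes, and 3 were lower, against 18.0%. The median log2 ratio of the members was 0.51, and that of all genes -0.09.

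By structural group, 6 of the 7 measured fibril-forming chains were higher and none lower, with a median log2 ratio of 0.78. Of the 4 measured fibril-associated chains 3 were higher (Col12a1, Col14a1 and Col16a1), with a median of 0.81. Col14a1 was 1.97-fold higher (1.70 to 2.29). Of the 4 measured beaded-filament chains Col28a1, a minor type VI-like chain, was higher with 11.2, 17.5, 29.1 and 9.33 CPM, 2.59-fold (1.84 to 3.65). Its Col6 relatives did not reach 1.5-fold. Among the transmembrane chains Col13a1 stood at 1.04 (0.958 to 1.13) of its PBS level, and Col17a1, a hemidesmosome chain, was lower at 9.58 CPM against 16.5 CPM.

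The 3 clusters of alveolar fibroblast-like cells were also compared one by one. Col1a1, Col1a2, Col3a1, Col5a2 and Col4a2 were at least 1.5-fold higher in LPS in all 3. Col1a1 was 2.44-, 2.05- and 1.82-fold higher in LPS in clusters 4, 12 and 30, Col5a2 was 3.51-, 2.43- and 2.30-fold higher, and Col4a2 1.65-, 2.26- and 2.49-fold. Col4a1 was 1.47-, 1.98- and 1.44-fold higher. In cluster 30 Col5a1 was at 1.08 of its PBS level (0.689 to 1.69), Col14a1 at 1.19 (0.731 to 1.94), Col16a1 at 1.37 (0.734 to 2.55) and Col27a1 at 0.805 (0.329 to 1.86). When alveolar and adventitial fibroblast-like cells were merged, Col1a1 was 1.18-fold lower in LPS. The merged class held 35 adventitial cells of 446 in LPS and 154 of 1051 in PBS. The part of this shift in the merged value was not tested. Differences between libraries also moved with gene length: in alveolar fibroblast-like cells the median log2 ratio was -0.30 in the shortest quartile of genes and 0.14 in the longest, and the measured members are long (median 114404 bp). Centred on genes of like length, the log2 differences were 1.26 for Col1a1, 0.85 for Col1a2, 0.77 for Col3a1, 1.25 for Col5a2, 0.83 for Col4a1, 0.93 for Col4a2 and 1.58 for Col12a1.

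Genes that process collagen were read in the same cells and comparison, beside the 13.4% higher and 18.0% lower of all genes. Of 18 measured genes for prolyl and lysyl modification and chaperoning, 4 were higher and none lower, with a median log2 ratio of 0.28 against 0.51 for the collagen members. P4hb, a subunit of the prolyl hydroxylase that stabilises the triple helix, went from 187 to 292 CPM, and Fkbp10, a collagen chaperone, from 43.1 to 65.7 CPM. Of 11 genes for propeptide cleavage and crosslinking, 5 were higher and 1 lower (median 0.56). Lox, the enzyme that crosslinks collagen, stood at 253 CPM in PBS against 383 CPM in LPS, and Loxl2, its relative, at 24.5 and 43.6 CPM. Pcolce2, an enhancer of C-propeptide cleavage, was lower at 566 CPM against 1407 CPM.

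Of 9 measured genes for collagen degradation and its inhibitors, 6 were higher (13.4% of all genes) and 1 lower (18.0%), with a median of 0.84. Timp1, an inhibitor of matrix metalloproteinases, was 8.01-fold higher, at 534 CPM in LPS against 66.7 CPM in PBS. Mmp14, a membrane-bound collagenase, had 181 CPM against 107 CPM, and Ctsk, a protease that cuts collagen, 56.5 against 31.5 CPM. Mmp9, also in this list, is a neutrophil marker. Of 13 fibril-organising proteoglycans and glycoproteins, 3 were higher and 4 lower (median -0.21). Fn1, fibronectin, was 2.36-fold higher at 1785 CPM, while Ogn and Prelp, small leucine-rich proteoglycans, were 1.88-fold and 1.94-fold lower. Of 14 basement membrane partners only the laminin chains Lama2 and Lama4 passed 1.5-fold, both higher, at 535 and 353 CPM in LPS, which is near the 13.4% of all genes.

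In capillary endothelium the LPS library showed higher type IV chains and a higher Col18a1. In aerocyte-like endothelial cells, the thin capillary cells of gas exchange, Col18a1 had 7.39, 3.63, 154 and 24.7 CPM. The LPS level was 20.9-fold that of PBS (14.5 to 30.9), the largest upward ratio among the named members of this comparison. In general capillary endothelial-like cells Col18a1 had 2.28, 1.09, 17.3 and 2.41 CPM, 7.59-fold higher in LPS than in PBS (4.46 to 13.5). Col15a1, the other multiplexin, had 4.21, 3.85, 14.97 and 6.15 CPM there, 3.56-fold higher (2.27 to 5.64). In aerocyte-like cells the LPS Col18a1 value was 154 CPM in both of the class's clusters, numbers 7 and 17, against 7.59 and 5.17 CPM in PBS.

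Col4a1 in general capillary endothelial-like cells had 891, 885, 1714 and 941 CPM, 1.92-fold higher in LPS than in PBS (1.86 to 1.99). Col4a2 had 525, 571, 1138 and 578 CPM, 2.17-fold higher (2.08 to 2.26). The LPS library stood alone, and the other 3 lay close together. In aerocyte-like cells Col4a1 had 996, 1205, 1611 and 1073 CPM and Col4a2 625, 854, 1273 and 709 CPM. Of 18 measured members in general capillary endothelial-like cells 5 were higher (background 10.6%) and 3 lower (11.9%). Of 12 in aerocyte-like cells 3 were higher (15.6%) and 5 lower (12.8%). The 5 lower ones, Col1a1, Col3a1, Col4a3, Col6a1 and Col6a2, were at 1.29 to 11.0 CPM in LPS.

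Length-centred log2 differences in general capillary endothelial-like cells were 2.70 for Col18a1, 0.72 for Col4a1 and 0.85 for Col4a2. In aerocyte-like cells they were 4.04 for Col18a1, 0.62 for Col4a2 and 0.35 for Col4a1, the last under 1.5-fold. Of 10 measured basement membrane partners in aerocyte-like cells 5 were higher (15.6% of all genes) and 1 lower (12.8%), with a median of 0.48. Lamc1, the common laminin gamma chain, had 192 CPM in LPS against 108 CPM in PBS, and Lama5 had 22.0 and 9.78 CPM. Itga2, a subunit of a collagen-binding integrin, had 256 and 131 CPM. Larger vessels had Col4a1 at 498, 569, 1113 and 572 CPM, with 43 cells in the LPS library, too few for a ratio. They also had Col5a2 at 129, 164, 122 and 109 CPM, above its 34.0 to 41.6 CPM in general capillary endothelial-like cells. The plot of Col18a1 and Col14a1 shows both genes by library.

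**Figure D4:**
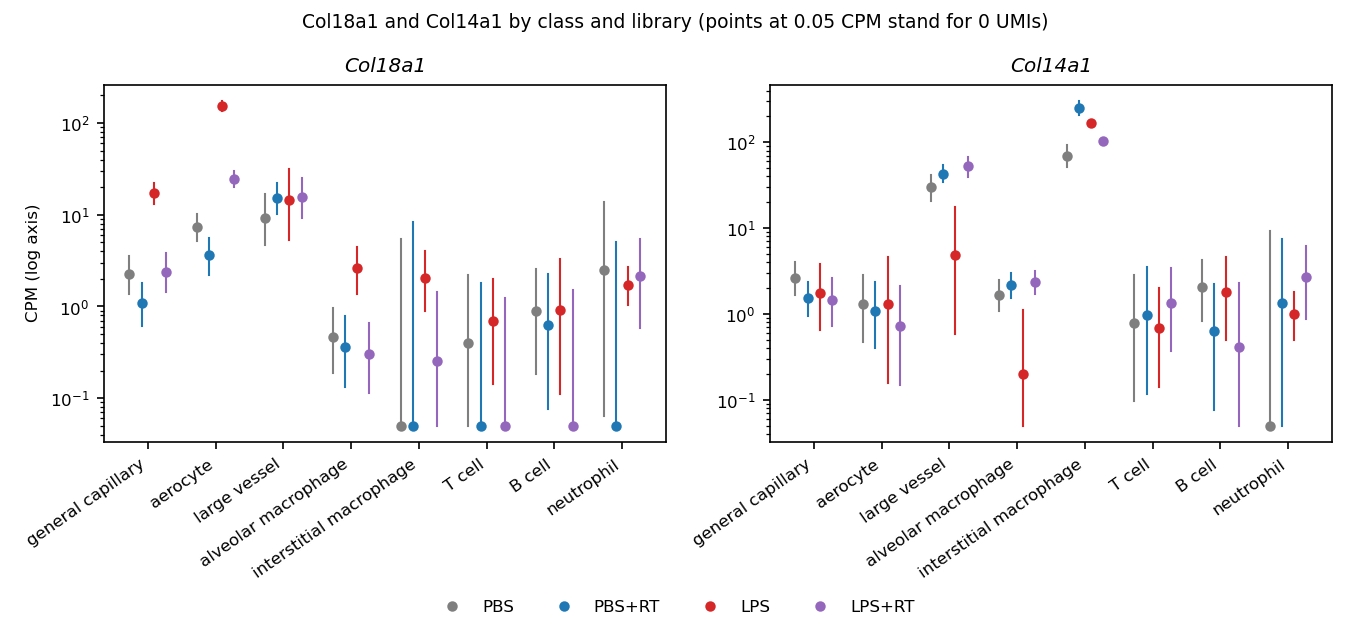
Level in CPM (log axis) of Col18a1 in endothelial classes and of Col14a1 in macrophage and T cell classes, 1 point per library with exact 95% Poisson intervals that cover counting error only; points at 0.05 CPM had 0 UMIs. Col18a1 in aerocyte-like cells is at 154 CPM in LPS, 24.7 CPM in LPS+RT and at or under 7.39 CPM in the PBS libraries.

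In alveolar type 1-like and pericyte-like cells the common type IV pair was higher in LPS than in PBS. In alveolar type 1-like cells Col4a1 had 806, 1288, 1543 and 815 CPM and Col4a2 had 673, 1178, 1271 and 631 CPM. LPS was 1.92-fold (1.73 to 2.12) and 1.89-fold (1.69 to 2.12) higher than PBS for these genes. Over the whole class Col4a3 stood at 0.987 of its PBS level and Col4a4 at 0.960. The class draws on 2 clusters in different shares, and cluster 37 gave 42.5% of its UMIs in PBS and 26.9% in LPS. Within cluster 9, the other cluster, Col4a3 was 1.35-fold higher in LPS (1.12 to 1.63), Col4a4 1.82-fold (1.45 to 2.28) and Col4a1 2.23-fold (1.95 to 2.56). Of 16 measured members 5 were higher (background 12.8%) and none lower (21.0%). In pericyte-like cells, which wrap capillaries, Col4a1 had 1361, 2066, 2237 and 1386 CPM and was 1.64-fold higher in LPS than in PBS (1.5 to 1.81). Col4a2 had 970, 1570, 1581 and 1004 CPM, 1.63-fold higher (1.46 to 1.82). Centred on genes of like length, these pericyte differences were 0.41 and 0.29 on the log2 scale, under 1.5-fold. Of 17 measured members 4 were higher (20.3%) and 4 lower (20.7%). Col4a4 was among the higher ones at 39.1 CPM against 19.1 CPM, from 13 and 15 UMIs. Those UMIs came from 2 of 71 cells in LPS and 14 of 193 cells in PBS. Col23a1, also among the higher ones, had 18 UMIs in LPS, all from 1 cell. Col3a1 was 2.44-fold lower in pericyte-like cells (1.82 to 3.33), where Dcn, a fibroblast gene, was at 26.8 CPM in PBS and 3.01 CPM in LPS, and the part of fibroblast RNA was not tested.

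LPS+RT against PBS+RT, the same contrast in irradiated lungs, shares no library with the first. In alveolar fibroblast-like cells none of 27 measured members was higher (background 11.1%) and 6 were lower (23.3%): Col4a3, Col4a4, Col4a5, Col4a6, Col12a1 and Col28a1. Col12a1 was 1.54-fold lower (1.29 to 1.85), and Col4a6 1.98-fold lower (1.60 to 2.46). Cluster 12 gave 73.6%, 83.4%, 74.2% and 68.0% of the UMIs of this class over the libraries. Cluster 4 gave 20.0%, 12.6%, 17.5% and 24.7%. In PBS, Col1a1 was at 1185 CPM in cluster 12, 380 CPM in cluster 4 and 1548 CPM in cluster 30. The part of these shares in the contrasts with irradiated libraries was not tested. The median log2 ratio of the members was -0.08 and that of all genes -0.18. The length trend had the opposite slope here, from 0.31 in the shortest quartile of genes to -0.58 in the longest. Centred on genes of like length, Col1a2 was at 0.85, Col3a1 at 0.61, Col14a1 at 0.88, Col4a1 at 0.24 and Col12a1 at -0.05 on the log2 scale, and 6 members then passed 1.5-fold upward.

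For Col1a1, Col5a2, Col4a2 and Col12a1 in alveolar fibroblast-like cells the LPS+RT level lay between those of PBS and LPS. In alveolar fibroblast-like cells LPS+RT against LPS gave 6 of 26 members lower (background 14.0%) and none higher (8.88%). Col1a1 was 1.55-fold lower in LPS+RT (1.5 to 1.60), Col5a2 1.78-fold (1.68 to 1.89), Col4a2 1.86-fold (1.75 to 1.99), Col12a1 2.70-fold (2.24 to 3.25) and Col28a1 3.12-fold (2.17 to 4.53). In general capillary endothelial-like cells 6 of 17 members were lower (10.1%) and 1 higher (7.06%). Col4a1 was 1.82-fold lower (1.76 to 1.89), Col4a2 1.97-fold (1.89 to 2.06) and Col18a1 7.20-fold (4.19 to 12.98). Col18a1 in aerocyte-like cells was 6.25-fold lower in LPS+RT than in LPS (4.94 to 7.97). The LPS library is shared with the contrast of LPS against PBS, so these ratios and those above are not independent.

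Col18a1 in aerocyte-like cells was higher after LPS in both contrasts. The level was 24.7 CPM in LPS+RT and 3.63 CPM in PBS+RT, 6.80-fold higher (4.18 to 11.6). Col4a1 and Col4a2 did not reach 1.5-fold between the irradiated libraries in either capillary class: the ratio of Col4a1 in general capillary endothelial-like cells was 1.06. Of 12 measured members in aerocyte-like cells 3 were higher (9.45%) and 4 lower (10.7%), and of 17 in general capillary endothelial-like cells 3 were higher (8.17%) and 3 lower (7.54%). Of 18 in pericyte-like cells 2 were higher (15.2%) and 6 lower (26.6%), Col4a2 and Col8a1 among the lower ones, but Col8a1 was at 0.78 on the log2 scale in the largest pericyte-like cluster. The plot of LPS ratios sets both contrasts side by side.

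**Figure D5:**
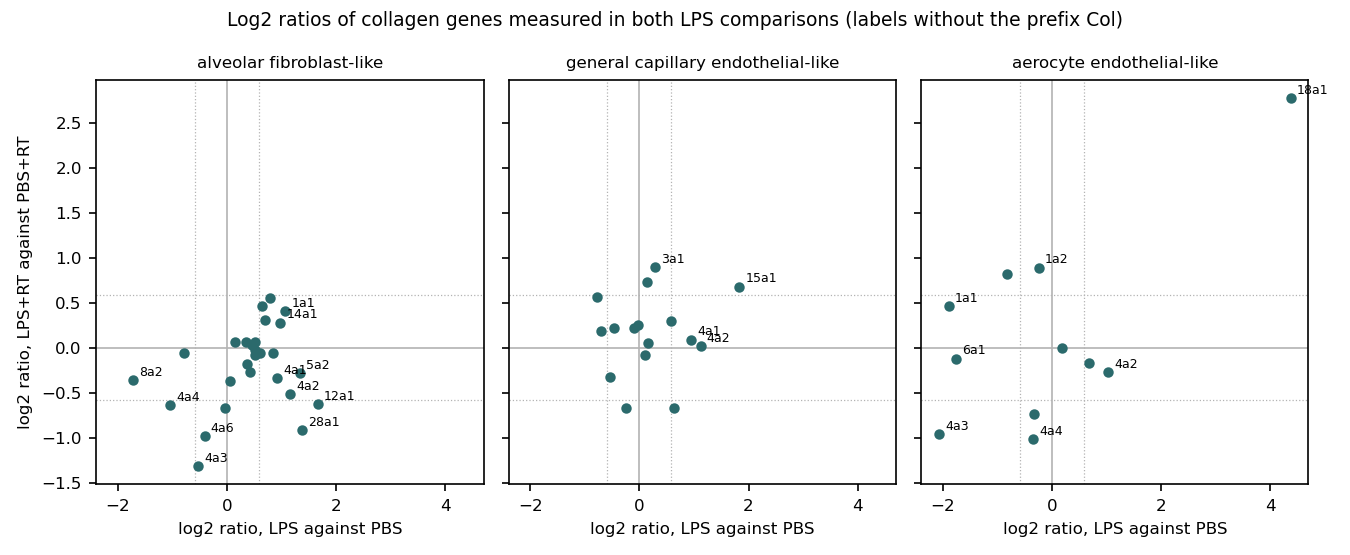
Log2 ratio of LPS to PBS (horizontal axis) against log2 ratio of LPS+RT to PBS+RT (vertical axis) for measured collagen genes in alveolar fibroblast-like, general capillary and aerocyte-like endothelial cells; dotted lines mark 1.5-fold. Col18a1 in aerocyte-like cells is high on both axes (4.38 and 2.77), and Col12a1 in alveolar fibroblast-like cells is at 1.66 and -0.63.

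Adventitial fibroblast-like cells had 87 and 102 cells in the irradiated pair and could be compared there. Of 27 measured members 4 were higher in LPS+RT (background 12.4%) and 7 lower (28.2%). Col3a1 was 1.53-fold higher (1.49 to 1.58), and Col5a3, a type V chain, 2.58-fold higher (1.59 to 4.23). Col13a1 was 3.93-fold lower (2.01 to 8.57). In cluster 31, Col5a3 had 17.0, 24.2, 302 and 53.8 CPM and was 2.23-fold higher in LPS+RT than in PBS+RT (1.23 to 4.17), and 2 of 17 measured members were higher (14.8%) and none lower (21.0%). The LPS library of cluster 31 had 38 cells, so no ratio was formed for its 302 CPM, which lay above the other 3 libraries. Its 108 UMIs came from 10 of those cells.

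Irradiation without LPS, PBS+RT against PBS, gave a higher Col4a2 in alveolar fibroblast-like, adventitial fibroblast-like and pericyte-like cells, before any centring on gene length. The count of members was near the background: in alveolar fibroblast-like cells 6 of 27 measured members were higher (background 17.1%) and none lower (15.7%). Col5a2 was 1.71-fold higher (1.61 to 1.81), Col4a2 1.70-fold (1.60 to 1.81) and Col12a1 1.81-fold (1.5 to 2.19). Col1a1 and Col3a1 stood at 1048 and 1069 CPM and at 1827 and 1790 CPM in the 2 libraries. The length trend in this pair was the steepest of the 4 comparisons in these cells, from -0.48 to 0.48, and the PBS+RT library had the most UMIs per cell. Centred on genes of like length, Col5a2 stood at 0.32, Col4a2 at 0.31 and Col12a1 at 0.40 on the log2 scale, all under 1.5-fold. The length trend ran from -0.39 to 0.59 in adventitial fibroblast-like and from -0.50 to 0.48 in pericyte-like cells. Col4a2, at 136483 bp, lies in the longest quartile of genes there.

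In adventitial fibroblast-like cells 5 of 27 members were higher with irradiation (background 23.0%) and 4 lower (14.0%), again near the background. Col4a2 was 1.93-fold higher (1.72 to 2.17), and Col15a1 1.85-fold lower (1.61 to 2.14). In pericyte-like cells 7 of 21 were higher (20.0%) and 3 lower (19.4%). Col4a1 and Col4a2 were 1.52-fold (1.41 to 1.64) and 1.62-fold (1.48 to 1.77) higher, and Col8a1 1.68-fold (1.38 to 2.05). Of the pericyte UMIs 80.7% came from cluster 35 in PBS+RT and 56.4% in PBS. Within that cluster Col4a1 was 1.36-fold higher. In the largest pericyte-like cluster the Col8a1 difference reversed, to -0.87 on the log2 scale. In general capillary endothelial-like cells no member of 17 was higher (10.3%) and 5 were lower (16.1%), all fibroblast chains at 5.15 to 15.7 CPM in PBS+RT. Col4a1 there was level at 891 and 885 CPM.

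Alveolar type 1-like cells had the most members apart in the irradiated control library, with 16 of 21 higher than in PBS (background 17.7%) and none lower (11.2%). Col1a1 had 35.5, 232, 76.9 and 52.8 CPM, 6.54-fold higher in PBS+RT than in PBS (4.86 to 8.99). Dcn, a fibroblast gene, stood at 15.5, 122, 2.75 and 14.0 CPM in these cells, with PBS+RT again the highest library. In PBS+RT 58.4% of the UMIs of the class came from 41 cells of cluster 37, with a median of 29712 UMIs, and in PBS 42.5% came from 62 cells with a median of 4049. In cluster 9, which holds the other cells, Col1a1 was at 57.1 CPM in PBS+RT and 55.2 CPM in PBS, a ratio of 1.03. Col4a1 in cluster 9 was 1.52-fold higher (1.36 to 1.70), close to the 1.60-fold of the class. The part of fibroblast RNA or of remaining doublets in cluster 37 was not tested.

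The same library makes the irradiated LPS contrast in alveolar type 1-like cells: 17 of 21 members were lower in LPS+RT than in PBS+RT (background 20.0%) and the other 4 were within 1.5-fold. Col1a1 was 4.39-fold lower in the class (3.38 to 5.79) but had 80.1 CPM against 57.1 CPM within cluster 9, where the ratio was 1.40 (0.957 to 2.07). Col4a1 was 1.58-fold lower in the class (1.47 to 1.70) and 1.56-fold lower in cluster 9. LPS+RT against LPS gave 5 of 17 members lower (12.9%) and none higher (19.4%), with Col4a2 2.02-fold lower (1.79 to 2.27). Alveolar type 2-like cells numbered 11 to 19 per library and were not compared. Club-like cells, the secretory cells of airways, had 52 to 140 cells per library and Col4a1 at 148, 68.6, 197 and 36.7 CPM.

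Among macrophages Col14a1 stood out from the lymphocyte level in interstitial macrophage-like cells, which carried C1qa at 2143 to 4201 CPM. It had 70.0, 252, 166 and 102 CPM in these cells, 2.37-fold higher in LPS than in PBS (1.76 to 3.26) and 1.63-fold lower in LPS+RT than in LPS (1.43 to 1.85). A Col14a1 UMI was present in 33.9%, 52.8%, 51.6% and 32.0% of interstitial macrophage-like cells and in 0.224% to 1.03% of T cell-like cells. Median depth was 10062 to 21502 UMIs in the former and 7695 to 10400 in the latter. Dcn was at 7384 to 12870 CPM in adventitial fibroblast-like cells and at 235, 122, 260 and 217 CPM in alveolar fibroblast-like cells. In the macrophages Dcn was at 1.03 to 10.4 CPM, and Col1a1 at 3.58 to 11.4 CPM. The part of fibroblast RNA in the Col14a1 level of the macrophages was not tested.

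Col4a1 in interstitial macrophage-like cells had 112, 47.8, 28.2 and 20.5 CPM, against 9.24 to 18.9 CPM in T cell-like and 37.5 to 70.4 CPM in neutrophil-like cells. In PBS Col4a1 was thus above its T cell-like and neutrophil-like levels and above Col14a1. Col27a1, a minor fibril-forming chain, had 23.8, 20.5, 1.03 and 3.33 CPM, against at most 0.459 CPM in T cell-like cells. B cell-like cells had Col27a1 at 4.14, 4.38, 5.90 and 7.36 CPM, above the macrophages in LPS and LPS+RT. Pecam1, an endothelial marker, fell over the libraries in the same order in the macrophages, from 122 CPM in PBS to 36.4 CPM in LPS+RT. T cell-like cells had more Pecam1, 171 to 309 CPM, so it is not specific to endothelium here. The part of endothelial RNA in the Col4a1 level of the macrophages was not tested. Of 9 measured members in interstitial macrophage-like cells 2 were higher in LPS (background 20.9%) and 3 lower (21.8%). The PBS and PBS+RT libraries held 62 and 36 interstitial macrophage-like cells, against 190 and 231 in LPS and LPS+RT. In alveolar macrophage-like cells Col15a1 had 6.499, 7.66, 12.6 and 9.09 CPM, 1.94-fold higher in LPS than in PBS (1.39 to 2.69), and 2 of 7 measured members were higher (15.3%) and 1 lower (16.1%). Different clusters held the class in these libraries: cluster 6 held 92.2% of its cells in PBS and 6.57% in LPS, and cluster 15 the rest.

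The members left stood low everywhere. The 11 members that reached 5 CPM in no class of the map were Col2a1, Col6a4, Col6a5, Col8a2, Col9a1, Col9a2, Col9a3, Col10a1, Col11a1, Col11a2 and Col19a1, most of them chains of cartilage or minor fibrils. Over all libraries Col9a1 had 2 UMIs, Col2a1 5, Col9a2 11 and Col6a4 16, the 4 members under 20. Col19a1 had 6, 11, 108 and 6 UMIs, and in LPS 52 of these lay in NK cell-like cells (22.6 CPM) and 24 in interstitial macrophage-like cells. Col26a1 was found at 8.35, 2.26, 5.61 and 17.2 CPM in lymphatic endothelial-like cells, where Col18a1 had 167, 72.3, 101 and 192 CPM.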

How the data were processed

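The authors deposited unnormalised UMI counts for each gene in each barcode, which came from Cell Ranger 7.0.1 per the file headers. The submitters' processing notes list Cell Ranger 7, Seurat 4.3.0, R 4.2.2 and mm10 as the build. Whether intronic reads entered the counts is not given in the sources used here, and it would change the counts of long genes most. The features files hold the deposited gene IDs and symbols, with no score or measurement.

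Barcodes with at least 500 UMIs and 200 genes were kept if no more than 10% of their UMIs were mitochondrial. Doublets were called per library with Scrublet (expected rate 8%, seed 7) in scanpy 1.11.5: 1.48%, 1.88%, 2.05% and 2.59% of cells in PBS, PBS+RT, LPS and LPS+RT were removed. Of simulated doublets 14.9%, 27.4%, 20.5% and 22.7% were caught, so doublets remain. The automatic threshold of 0.659 in LPS was replaced by 0.316, the median of the other libraries, after it was seen. Barcode sequences were not analysed here. All cells were clustered together on 2000 variable genes without collagen genes (30 components, 15 neighbours, leidenalg 0.10.2 at resolution 1.5, igraph 0.11.9, scikit-learn 1.9.0), giving 49 clusters.

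A cluster was named where at least 3 markers of a class were in at least 10% of its cells and 2-fold above the other clusters, with a marker among its 10 leading genes. The thresholds were set with the clusters in view. Of 49 clusters 11 stayed unnamed, with 7012 of 33743 cells (20.8%). UMIs were summed per class and library in Python 3.11.15 with numpy 2.4.6, scipy 1.17.1 and pandas 2.3.3, and drawn with matplotlib 3.10.9. Levels have exact Poisson intervals, and ratios exact conditional binomial intervals, in classes of at least 50 cells in both libraries. A gene at 0 was put at 3 counts. The interval step was tested on simulated data. Gene positions and lengths are from GENCODE M21.

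The members and lists were chosen with earlier results of these data known. Named were the 5 members with the highest mean level in a class, up to 5 members a direction with at least 20 CPM and an interval excluding a ratio of 1, their trimer partners, up to 3 members of a pathway list, and 12 members always. The low members and others outside this rule were chosen after their values were seen. The alternatives tried are in the closing section.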

Additional observations from a re-analysis of the deposited data

Results flagged for a closer look

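In 11 cases a member was at least 1.5-fold apart in opposite directions in LPS against PBS and in LPS+RT against PBS+RT, of 139 pairs of a member and a class measured in both (7.91%, against 4.99% for all genes; some classes are nested). In alveolar type 1-like cells it was 5 of 16, against 5.16% of all genes, and outside them 6. These differences were not tested, since each group is 1 library, and the log2 ratio is given first without and then with irradiation. Col12a1 in alveolar fibroblast-like cells was at 1.66 and -0.63, a difference of -2.29 with a counting interval from -2.66 to -1.91, and centred on genes of like length at 1.58 and -0.05. Col28a1 was at 1.37 and -0.91 in alveolar fibroblast-like cells, and at 1.61 and -1.19 when these were merged with adventitial ones. Col4a2 in pericyte-like cells was at 0.70 and -0.64. Its length-centred difference without irradiation was under 1.5-fold, as given above. Cluster 35 gave 56.4%, 80.7%, 65.9% and 53.8% of the pericyte UMIs in PBS, PBS+RT, LPS and LPS+RT. Col12a1 in general capillary endothelial-like cells was at 0.63 and -0.67, and Col3a1 in aerocyte-like cells at -0.83 and 0.82, both at low levels. The other 5 cases were in alveolar type 1-like cells, whose PBS+RT library drew 58.4% of its UMIs from 41 cells: Col1a1 at 1.12 and -2.14, Col1a2 at 0.89 and -2.07, Col4a1 at 0.94 and -0.66, Col4a2 at 0.92 and -0.90, and Col13a1 at 0.83 and -1.32. Within the larger alveolar type 1-like cluster, Col4a1 was at 1.16 and -0.64, and Col1a1 at 0.82 and 0.49.

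Collagen RNA above the lymphocyte-like and neutrophil-like level (at most 189 to 241 CPM by library) was also found in 6 clusters outside the comparisons. Unnamed cluster 34, led by Robo2, Slit2 and Nox4, reached a summed 7405 CPM in LPS+RT from 37 cells, with Col3a1 and Col1a1 leading. Unnamed cluster 41 held 82 cells in LPS and 1 to 7 in each of the other libraries, and its summed level in LPS was 2226 CPM with Col4a1 at 1152, Col4a2 at 875 and Col18a1 at 85.2 CPM. Unnamed cluster 1, of cells with few UMIs, reached 2202 CPM, with Col4a1 and Col4a2 leading in every library. The platelet-like cluster 5 reached 1730 CPM with the same leading pair. Unnamed cluster 8 reached 315.3 CPM, and unnamed cluster 45 reached 3136 CPM in LPS+RT, from 11 cells.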

How the results depend on the processing

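No paired analysis was possible because each group is 1 library. Counts are listed here for alveolar fibroblast-like and general capillary endothelial-like cells only. Other classes were also recounted, and their counts are not listed. A count is listed only where it changed by more than 1.5-fold. When called at 2-fold, 37 counts over all classes changed that much and 27 did not. With the cell minimum raised to 1000 UMIs no count did so, and no ratio of a named member left its counting interval. The length centring was chosen after seeing the data. Counts of members in alveolar fibroblast-like cells moved as follows. LPS against PBS: 12 higher became 5 at 2-fold, and 3 lower became 5 with cells weighted equally and 5 length-centred. LPS+RT against PBS+RT: 0 higher became 3 at resolution 3, 2 scaled to the median ratio, 2 with equal weights, 1 with doublets kept, 1 in the largest cluster and 6 length-centred, and 6 lower became 3 scaled to the median, 1 at 2-fold and 1 length-centred. PBS+RT against PBS: 6 higher became 0 at 2-fold and 1 length-centred, and 0 lower became 2 with equal weights and 1 in the largest cluster. LPS+RT against LPS: 0 higher became 2 at resolution 3, 2 with equal weights, 2 in the largest cluster and 2 length-centred, and 6 lower became 10 in the largest cluster and 2 at 2-fold. In general capillary endothelial-like cells, LPS against PBS: 5 higher became 3 at 2-fold, and 3 lower became 7 with equal weights and 1 at 2-fold. LPS+RT against PBS+RT: 3 higher became 0 at 2-fold, and 3 lower became 0 in the largest cluster, 0 at 2-fold and 0 length-centred. PBS+RT against PBS: 0 higher became 1 with T and B cell levels subtracted, and 5 lower became 3 at resolution 3, 1 at 2-fold and 8 length-centred. LPS+RT against LPS: 1 higher became 3 at resolution 3, 2 with equal weights, 2 with subtraction, 0 with doublets kept, 2 in the largest cluster, 0 at 2-fold and 2 length-centred, and 6 lower became 11 with subtraction and 3 at 2-fold. Mean summed collagen levels in the main processing were 14090 CPM (fibroblast-like), 4940 (pericyte-like), 2006 (endothelial-like) and 5364 (alveolar type 1-like). With collagen genes kept in clustering they were 13940, 4683, 2031 and 5472 CPM in the same order. With equal weights they were 8865, 4164, 1887 and 3331 CPM. Single members reversed mostly in the largest cluster of a class. There, LPS+RT against PBS+RT gave log2 0.78 for Col8a1 and 0.40 for Col14a1 in pericyte-like, 0.78 for Col8a1 in large vessel, 0.02 for Col4a1 in alveolar macrophage-like, and 0.48, 0.49, 0.23, 0.26 and 0.16 for Col14a1, Col1a1, Col1a2, Col3a1 and Col18a1 in alveolar type 1-like cells (Col18a1 also 0.03 with equal weights). PBS+RT against PBS gave -0.47 for Col4a6 in alveolar fibroblast-like cells (-0.14 length-centred), -0.10, -0.87 and 0.90 for Col7a1, Col8a1 and Col13a1 in pericyte-like, and -0.81 for Col8a1 in large vessel cells. Equal weights gave 0.33 for Col13a1 and -0.32 for Col14a1 in pericyte-like cells, and 0.03 for Col3a1 in aerocyte-like cells in LPS against PBS (0.48 with subtraction). Col23a1 in adventitial cells was at 0.04 length-centred in LPS+RT against PBS+RT. In LPS+RT against LPS, aerocyte-like Col1a1 was at -0.75 with subtraction and interstitial macrophage-like Col1a2 at -0.27 with doublets kept. The causes were not tested. Depth limits the members under about 20 CPM, whose intervals are wide.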
